A study of Arabidopsis thaliana with 10 samples.

Results

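Of the 1362 long noncoding RNA (lncRNA) loci with expression values, 107 carry PIF4 or PIF5 in the authors' column of potential transcription factor binding. They were chosen by that text alone, in any transcript of the locus, and no expression value was used. The text names PIF4 only at 62 loci, PIF5 only at 13 and both at 32, and it names no other factor anywhere in the catalogue. They comprise 42 of the 384 annotated loci and 65 of the 978 predicted ones, 29 of level 1 and 36 of level 2, the authors' grades of prediction. The binding is called potential in the deposited column, and neither labels nor headers state the plants or the experiment behind it.

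The study sequenced RNA without poly(A) tails from 12-day-old wild-type Col-0 seedlings of Arabidopsis thaliana, to find lncRNAs that respond to stress. The 9 libraries are an untreated control taken at 3 h, plus 3 h and 12 h of each stress: cold at 4 °C, heat at 37 °C, NaCl at 200 mM for salt, and mannitol at 300 mM, which withholds water osmotically, for drought. Reads and RPKM of a stress are given as 3 h, then 12 h. Every condition is 1 library, so a ratio compares libraries, no replicate spread exists and no difference was tested. The 12 h libraries have no control of their own time, so stress and time of day cannot be told apart there.

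PIF4 and PIF5 are basic helix-loop-helix factors that phytochromes, the red light receptors, bind in the light and mark for removal. In shade, darkness and warmth they accumulate and drive stem elongation, and PIF4 is known for its part in growth at raised temperature. Both bind a hexamer known as the G-box, spelled CACGTG, and more weakly an E-box. The E-box searched here, on either strand, reads CACATG.

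The sequences that the members share were examined first, from 250 nt before to 50 nt after the first base of each locus, on the RefSeq assembly TAIR10.1. At least 1 G-box lay in this window at 22 of the 107 loci (20.6%, exact binomial 95% interval 13.4 to 29.5), against 85 of all 1362 loci (6.24%) and 63 of the 1255 without the text (5.02%). Annotated members (21.4%) and predicted members (20.0%) were alike in this share, against 8.33% and 5.42% of all annotated and all predicted loci. The share was 21.0% with PIF4 only and 25.0% with both factors, while 1 of the 13 loci with PIF5 only had a G-box. The E-box was less set apart, at 18.7% of members against 14.1% of all loci. In 1000 nt centred on the start, 34.6% of members and 13.2% of all loci held a G-box. The 70 other members have no CACGTG in those 1000 nt.

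Of the 22 loci with a G-box in the shorter window, 21 have it before the start and 1, AT4G39404 beside the PLS gene, within the transcript. The window holds 250 nt before the start and only 50 nt after it, so this split says little about position. The 100 nt just before the start held one in 11.2% of members and 2.47% of other loci, the highest share of any 100-nt bin in both sets. Members were above the other loci in every bin, from 6.54% against 1.04% in the first to 1.87% against 1.59% in the last. The excess of members is thus not confined to the start.

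**Figure D1:**
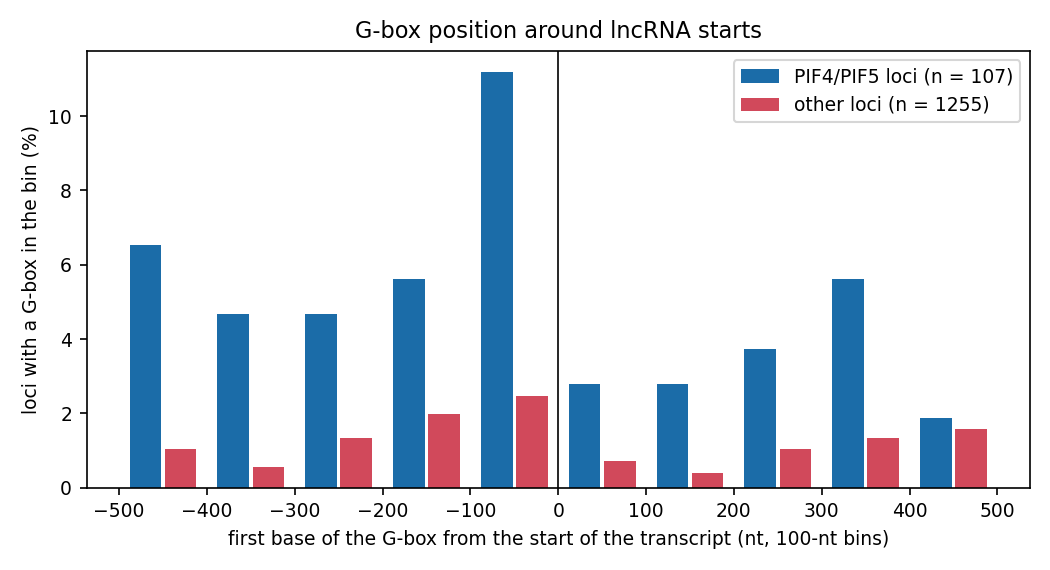
Share of loci (%) with a G-box (CACGTG) in each 100-nt bin from 500 nt before to 500 nt after the first base of the locus, for the 107 PIF4/PIF5 loci and the 1255 others. The bin before the start is the highest in both, at 11.2% and 2.47%.

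The G-boxes below, in capitals within 15 nt of flank on each side, belong to the 5 members with this motif that were called in some library, and to AT1G20515, highest in cold. They are read 5′ to 3′ on the strand of the lncRNA, with the distance of the first G-box base before its start.

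AT2G45685, 46 nt before the start, chr2:18820630-18820665, plus strand: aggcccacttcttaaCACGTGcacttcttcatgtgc
AT2G45685, 24 nt before the start, chr2:18820652-18820687, plus strand: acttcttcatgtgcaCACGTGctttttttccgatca
AT1G20515, 149 nt before the start, chr1:7106001-7106036, plus strand: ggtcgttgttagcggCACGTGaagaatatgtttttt
level2_lnc-616, 27 nt before the start, chr5:24782162-24782197, plus strand: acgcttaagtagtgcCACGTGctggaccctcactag
level2_lnc-376, 220 nt before the start, chr3:20872570-20872605, plus strand: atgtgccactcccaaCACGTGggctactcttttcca
level1_lnc-93, 51 nt before the start, chr2:9843002-9843037, minus strand: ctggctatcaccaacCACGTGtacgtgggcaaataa
level2_lnc-270, 8 nt before the start, chr3:672488-672523, minus strand: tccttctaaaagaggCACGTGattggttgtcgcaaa

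AT2G45685 is the only member with more than 1 G-box in the window. Its 2 G-boxes lie 22 nt apart, just before the start of a transcript that runs antisense to TCP9, a TCP family transcription factor gene. The whole window, chr2:18820441-18820740, plus strand, has both in capitals.

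AT2G45685 window: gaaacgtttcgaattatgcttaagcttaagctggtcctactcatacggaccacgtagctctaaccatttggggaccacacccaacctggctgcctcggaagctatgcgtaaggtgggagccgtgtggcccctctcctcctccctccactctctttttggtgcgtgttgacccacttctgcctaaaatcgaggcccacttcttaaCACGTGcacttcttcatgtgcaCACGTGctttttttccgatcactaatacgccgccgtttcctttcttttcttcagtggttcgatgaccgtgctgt

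The libraries held 17.6 M to 37.0 M mapped reads, of which 10399 to 22293 fell on the catalogue and 34.8% to 64.2% of those on the PIF4/PIF5 loci. Most of these reads belong to AT1G15405, with 70.4% to 87.3% of the member reads of a library. Without it the members took 10.2% of the lncRNA reads in the control, from 6.38% (drought at 3 h) to 10.5% in 7 of the stress libraries, and 18.5% in heat at 3 h. At least 1 read fell on 89 members (83.2%, against 81.8% of all loci). In some library 31 members (29.0%, against 26.2% of all loci) reached 1 RPKM, reads scaled to exon length and mapped depth. In the control 82 members had no read, against 1078 of all 1362 loci, and 8 reached 1 RPKM, against 55. Few could thus be seen to go lower. The authors class 36 members (33.6%), AT1G15405 among them, as Poly(A)+ and 9 (8.41%) as Poly(A)-, against 28.4% and 8.96% of all loci. These libraries are of RNA without poly(A) tails, so their values cover that fraction and not all RNA of a locus. In whole seedlings, fewer cells with an RNA and less of it per cell cannot be told apart.

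Each stress library was set against the control on log2(RPKM + 1), and a 2-fold difference there made a call, a scale on which changes of low loci look smaller than they are. In cold at 3 h 4 members were higher and 1 lower, against 2.20% and 1.47% of all loci. In cold at 12 h 11 members (10.3%) were higher and 0 lower, against 5.73% and 1.40% of all loci. Heat at 3 h had 3 higher and 0 lower (all loci 1.17% and 1.32%), and heat at 12 h 6 and 1 (4.92% and 1.40%). Where no member was called lower, 2 were lower with a counting interval that excludes 1 in each of those libraries, and no test was possible. Salt at 3 h had 5 higher and 3 lower (3.45% and 2.06%), and at 12 h 9 and 1 (7.64% and 1.17%). Drought at 3 h had 5 and 1 (3.23% and 1.62%), and at 12 h 9 and 1 (9.40% and 1.32%).

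Over the 8 comparisons 24 members (22.4%) were higher at least once, against 22.0% of all loci, and 3 (2.80%) were lower at least once, against 2.50%. Counted over any library, a PIF4/PIF5 locus was thus called about as often as any locus of the catalogue. Library by library, the member share called higher was above that of all loci in 7 of the 8 comparisons, and the share called lower in 1. A call of lower needs at least 1 RPKM in the control, which 8 members and 55 of all loci had. Of those, 3 members and 34 of all loci were called lower. The cold 12 h share among members was 10.3% (exact binomial interval over loci 5.24 to 17.7), beside 5.73% of all loci. The interval takes loci as independent and does not cover the spread between libraries. It is therefore no test of members against all loci. Of the members called there, level2_lnc-185 and level2_lnc-413 hold the same repeat. Of the 22 members with a G-box 5 (22.7%) were called in some library, and of the other 85 members 20 (23.5%). Of the 24, 15 were higher in 1 library only, and those higher in at least 4 were AT3G12965, level2_lnc-150, level2_lnc-185, level2_lnc-376, level2_lnc-413 and level2_lnc-479. The same counts were not made over all loci, so repeated calls cannot be read as a trait of members. All 8 comparisons also share 1 control library. By class, 5 of the 11 small RNA precursors were called (45.5%, against 26.0% of all loci of that class), and without the tandem repeat loci described below 3 of 8, against 14.4%. The calls among 40 loci close to a coding gene (cis) were 9 (22.5% against 26.4%), among 29 antisense loci 7 (24.1% against 22.3%), among 21 intergenic loci 3 (14.3% against 25.9%) and among 5 transposable element loci 0 (against 19.8%).

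**Figure D2:**
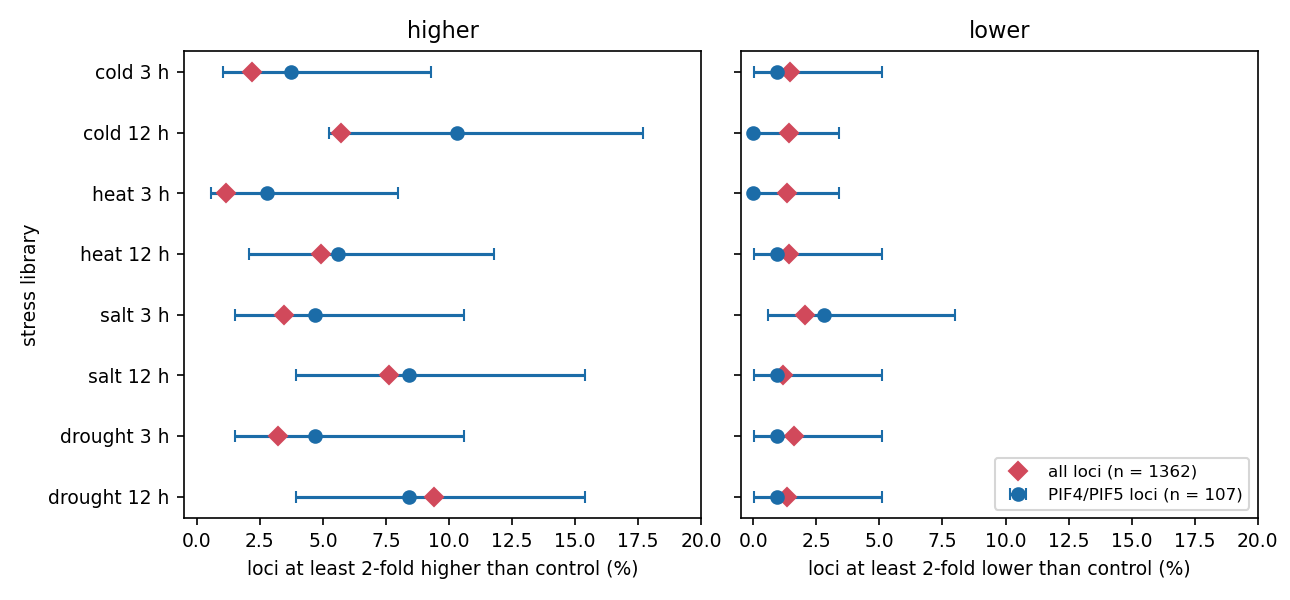
Percent of loci at least 2-fold higher (left) or lower (right) than the control on log2(RPKM + 1) in each stress library, for the 107 PIF4/PIF5 loci (circles, with exact binomial 95% intervals over loci) and all 1362 loci (diamonds). The intervals take loci as independent and do not cover the spread between libraries, so they do not test members against all loci.

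**Figure D3:**
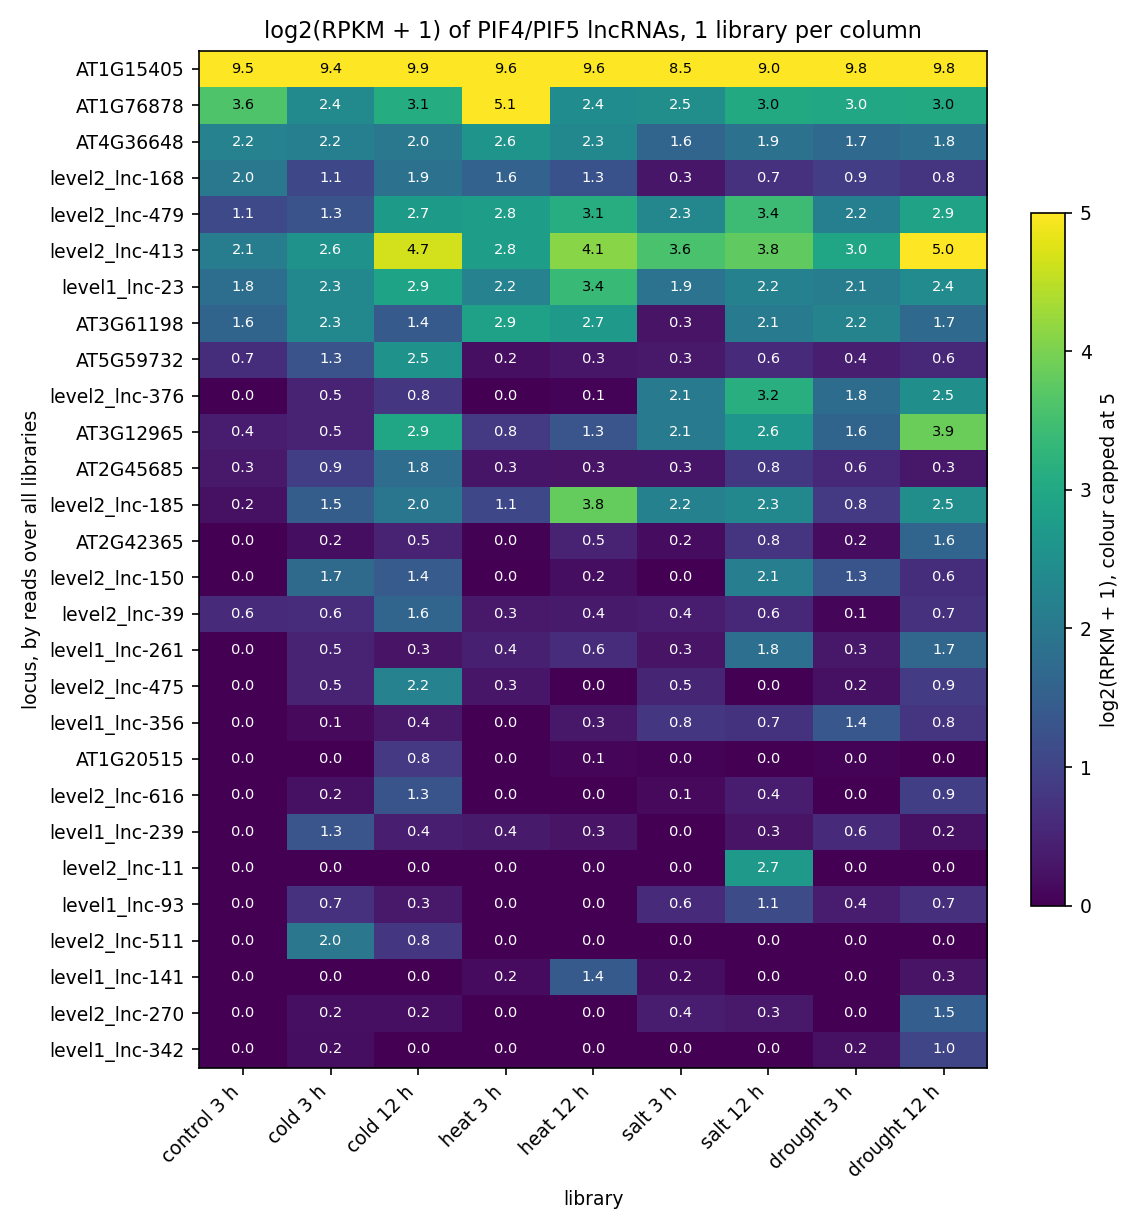
log2(RPKM + 1) of the 28 PIF4/PIF5 loci that were named by rule or called, by library (columns) and ordered by reads over all libraries (rows). AT1G15405 stands far above all others in every library, and most rows are at or near 0 in the control.

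AT1G15405 (chromosome 1, 5297875 to 5298166, minus strand) is a single-exon locus of 292 nt, a small RNA precursor by the authors' class, 158 bp from the coding gene AT1G15410. In RefSeq the lncRNA gene AT1G05163 overlaps it on its strand. Its RPKM was 712 untreated, then 682 and 946 under cold, 757 and 789 under heat, 364 and 496 under salt, 903 and 893 under drought. Both salt libraries lie under all others. Salt at 3 h was 1.96-fold lower (1.87 to 2.04, exact binomial 95% interval of the reads, counting error only, as for every interval of a ratio below) and salt at 12 h 1.43-fold lower (1.37 to 1.50). With 5235 control reads its intervals are narrow, but they do not hold the variation between plants. After removal of the common shift of each library (its median ratio to the control over loci with reads everywhere), both salt libraries passed 2-fold, with log2 differences of -1.10 and -1.27.

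The next members had their highest RPKM in cold, while others that were also called in cold were higher elsewhere and follow later. AT5G59732 (chromosome 5, 24064478 to 24066154, plus strand) lies opposite EXO70H7, a gene for a subunit of the exocyst, which tethers secretory vesicles. Its reads numbered 23 untreated, then 75 and 242 under cold, 9 and 13 under heat, 13 and 15 under salt, 14 and 16 under drought. Only the cold libraries exceed the control, 2.49-fold (1.55 to 4.17) at 3 h and 8.33-fold (5.42 to 13.4) at 12 h. Heat was 3.76-fold lower (1.68 to 9.23) at 3 h and 2.41-fold lower (1.17 to 5.19) at 12 h.

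AT2G45685, antisense to TCP9 (chromosome 2, 18820691 to 18822184, plus strand) with the pair of G-boxes shown above, counted 10 reads untreated, then 45 and 117 under cold, 12 and 10 under heat, 10 and 20 under salt, 19 and 8 under drought. Cold at 12 h was 9.26-fold higher (4.86 to 19.8). Cold at 3 h stood at 0.915 RPKM against 0.266 in the control, and the other libraries ran from 0.195 to 0.761. AT1G20515 (chromosome 1, 7106165 to 7107977, plus strand), partly opposite the coding gene AT1G20520 and with a G-box before its start, had 28 reads in cold at 12 h, 2 in heat at 12 h and 1 each in salt and drought at 3 h. Neither the control nor cold at 3 h gave any (0 reads), so cold at 12 h was at least 7.39-fold higher than the control and at least 9.66-fold higher than cold at 3 h, both against a floor of 3 reads per library, used for every such bound below. On log2(RPKM + 1) its difference of 0.82 stayed under the 2-fold rule.

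The locus level2_lnc-511 (chromosome 5, 3173364 to 3176063, plus strand) runs antisense to FLC, the repressor of flowering that prolonged cold silences. In RefSeq the lncRNA gene AT5G01675 overlaps it on its own strand, and antisense transcripts of FLC, known as COOLAIR, are known to rise early in cold. Cold gave 17 and 4 reads and the control and the 6 other libraries 0, on 2 exons of 174 nt in all. Cold at 3 h was at least 4.34-fold higher than the control and 4.11-fold higher (1.34 to 16.8) than cold at 12 h. The text names PIF4 at this locus, and no G-box lies within 500 nt of its start.

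Other members were also highest in cold. The intergenic level2_lnc-616 (chromosome 5, 24782204 to 24782569), 860 bp from AT5G61670, has a G-box 27 nt before its start and had 17 reads in cold at 12 h, 7 in drought at 12 h and at most 2 elsewhere. Cold at 12 h was at least 4.49-fold higher than the control, which had 0. The cis locus level2_lnc-475 (chromosome 4, 13816659 to 13816882), 213 bp from AT4G27660, had 26 reads in cold at 12 h and 0 to 4 elsewhere, at least 6.86-fold higher than the control. Antisense to the cellulase gene CEL5, level2_lnc-39 (chromosome 1, 8096520 to 8097122) counted 8 reads untreated, 40 after 12 h of cold and 1 to 11 elsewhere, 3.96-fold higher (1.83 to 9.79). Overlapping STY46, a protein kinase gene, on its strand, level1_lnc-239 (chromosome 4, 17999081 to 17999363) had 14 reads in cold at 3 h and 0 to 4 elsewhere, at least 3.57-fold higher than the control. Reads of STY46 itself were not separated from it.

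Libraries were strand-specific per the labels, but neither labels nor headers say whether the authors' counting used strand, so reads of an antisense lncRNA and of the gene opposite cannot be told apart with certainty.

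**Figure D4:**
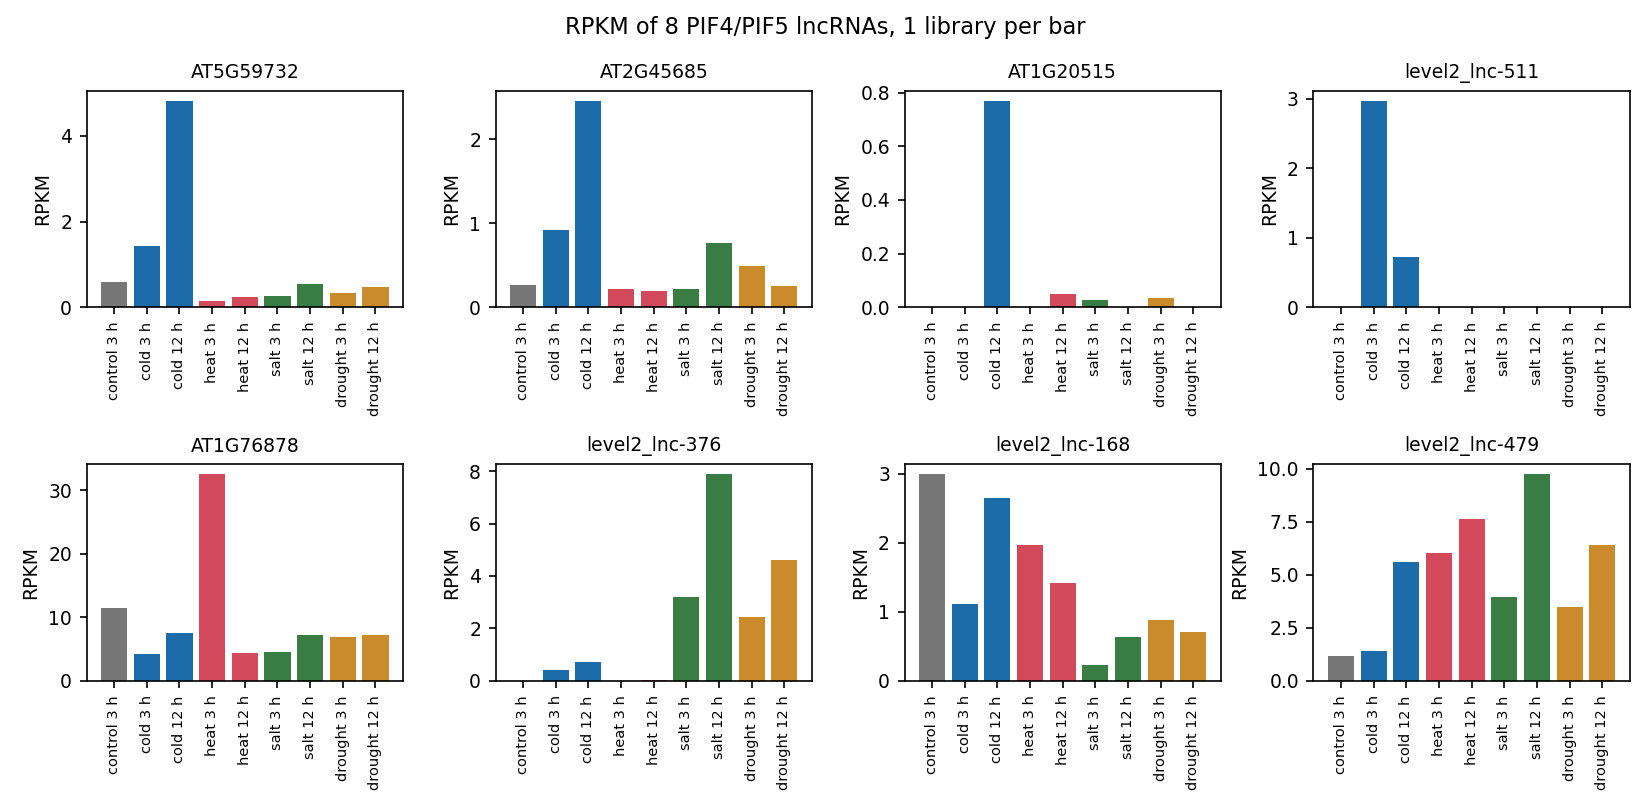
RPKM of 8 PIF4/PIF5 lncRNAs in each of the 9 libraries (1 bar per library, no error bars since there are no replicates, y axes differ). The top row holds loci highest in cold, with AT5G59732 at 4.82 RPKM and AT2G45685 at 2.46 RPKM in cold at 12 h, and the bottom row AT1G76878 (highest in heat at 3 h), level2_lnc-376 (salt and drought), level2_lnc-168 (lowest in salt) and level2_lnc-479 (low in control and cold at 3 h).

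Heat set apart AT1G76878 (chromosome 1, 28866404 to 28867969, minus strand), a single-exon transcript of 1566 nt antisense to AT1G76880 with both factors in its text. Its RPKM was 11.4 untreated, then 4.15 and 7.58 under cold, 32.5 and 4.37 under heat, 4.56 and 7.22 under salt, 6.95 and 7.17 under drought. Heat at 3 h is alone above the control, and the other 7 libraries are below it. The ratio was 2.84 (2.56 to 3.16) at 3 h of heat, with 1885 reads, and 12 h was 7.44-fold lower (6.49 to 8.56) than 3 h. Cold at 3 h, heat at 12 h and salt at 3 h were 2.75-fold (2.34 to 3.26), 2.62-fold (2.23 to 3.08) and 2.51-fold (2.13 to 2.96) lower than the control. After removal of the common shift the 4 other stress libraries were past 2-fold lower too, by log2 differences of -1.04 (cold at 12 h and drought at 3 h), -1.23 (salt at 12 h) and -1.37 (drought at 12 h). This locus gave 1885 of the 3315 member reads outside AT1G15405 in heat at 3 h.

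AT3G61198 (chromosome 3, 22655884 to 22656599, minus strand), a small RNA precursor by class, was also higher in heat, at both times. Its RPKM was 2.04 untreated, then 4.05 and 1.67 under cold, 6.29 and 5.48 under heat, 0.204 and 3.20 under salt, 3.70 and 2.29 under drought. Heat was 3.08-fold (2.09 to 4.67) and 2.68-fold (1.80 to 4.10) higher, the second under 2-fold once the common shift of that library is removed (log2 difference 0.77). Salt at 3 h, with 4 reads against 32 in the control, was 10.0-fold lower (3.55 to 39.0), and salt at 12 h stood 15.7-fold above salt at 3 h (5.61 to 60.8).

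Fewer reads lay behind the intergenic level1_lnc-141 (chromosome 3, 4724568 to 4724809), which the RefSeq lncRNA gene AT3G02895 overlaps on its own strand. Heat at 12 h gave 14 reads, the control 0 and the others at most 1, a ratio of at least 3.42. AT4G36648 (chromosome 4, 17280528 to 17282730, minus strand), 303 bp from PBRP, a gene for a plant-specific TFIIB-related factor, was called nowhere. It counted 192 reads untreated, 390 and 291 under heat, 241 and 202 under cold, and 98 to 138 under salt and drought. Heat at 3 h was 1.38-fold higher (1.16 to 1.65) and salt at 3 h 1.74-fold lower (1.39 to 2.18).

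Several members were highest in salt or drought. The small RNA precursor level2_lnc-376 (chromosome 3, 20872805 to 20873677, plus strand) overlaps the transcribed pseudogene AT3G56275 and has a G-box 220 nt before its start. Salt gave 75 and 103 reads and drought 47 and 72, against 10 and 17 under cold, 0 and 1 under heat and 0 untreated. Salt at 3 h was at least 20.0-fold and drought at 3 h at least 15.1-fold above the control. From 3 h to 12 h its RPKM grew 2.46-fold in salt (1.81 to 3.36) and 1.90-fold in drought (1.30 to 2.81), comparisons that do not use the control. The common shift was not removed from these ratios. It also grew between these libraries, from log2 0.14 to 0.75 in salt and from 0.46 to 0.91 in drought.

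AT3G12965 (chromosome 3, 4136961 to 4137674, minus strand) lies 133 bp from SMP1, a gene on the other strand. Its RPKM was 0.318 untreated (3 reads), then 0.406 and 6.72 under cold, 0.794 and 1.48 under heat, 3.22 and 5.17 under salt, 2.05 and 13.7 under drought. The interval of the ratio to the control holds 1 in cold and heat at 3 h and in no other stress library. Cold at 12 h was 16.6-fold above cold at 3 h (6.81 to 52.4). In drought at 3 h the call rests on the authors' scaling, since the log2 difference of 1.21 became 0.92 once the common shift was removed.

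AT2G42365 (chromosome 2, 17641784 to 17645835, minus strand), opposite AT2G42360 and AT2G42370, gave 58 reads after 12 h of drought, 16 to 18 in each other 12 h library, 1 to 6 in the 3 h stress libraries and 0 untreated. Drought went from 4 reads at 3 h to those 58, an interval of 6.67 to 68.3 for the ratio, and was at 12 h at least 23.2-fold above the control. In drought at 3 h level1_lnc-356 (chromosome 5, 26337051 to 26337393), 272 bp from CGR3, had its maximum of 14 reads, at least 4.50-fold above the control, with 0 to 8 elsewhere. Antisense to SMT1, a sterol methyltransferase gene, level1_lnc-261 (chromosome 5, 4426530 to 4426839) gave 14 reads at 12 h of salt and of drought alike, 0 untreated and 2 to 6 elsewhere.

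Single libraries carry some loci. All 28 reads of level2_lnc-11 (chromosome 1, 2196532 to 2196818), 536 bp from MAPKKK13, fell in salt at 12 h, at least 13.4-fold above the control and at least 16.7-fold above salt at 3 h. Antisense to AT1G73470, level2_lnc-150 (chromosome 1, 27627161 to 27627579, minus strand) gave 32 and 23 reads under cold, 0 and 2 under heat, 0 and 25 under salt, 16 and 5 under drought and 0 untreated. Among members with G-boxes, level2_lnc-270, on the strand of the acetyltransferase gene MCC1 that it overlaps, gave 8 reads after 12 h of drought and 0 to 2 elsewhere. The other, level1_lnc-93, gave 5 reads after 3 h of cold, 5 after 12 h of salt and 0 to 4 elsewhere. Without a G-box, level1_lnc-342 (chromosome 5, 23997874 to 23998097), 53 bp from AT5G59540, had 5 reads in drought at 12 h and 0 to 1 elsewhere. These last 3 calls stand on 5 to 8 reads each.

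The longest member, level2_lnc-168 (chromosome 1, 29804735 to 29809514, minus strand), has 7 exons and 4761 nt, overlaps the transcribed pseudogene AT1G79245 on its own strand, and carries PIF5 only. Its RPKM was 2.99 untreated, then 1.11 and 2.65 under cold, 1.96 and 1.41 under heat, 0.233 and 0.633 under salt, 0.877 and 0.699 under drought. The 4 salt and drought libraries are the lowest, and no library exceeds the control. Salt was 12.8-fold (9.04 to 18.7) and 4.72-fold (3.53 to 6.42) lower, drought 3.40-fold (2.74 to 4.26) and 4.27-fold (3.30 to 5.60). Cold at 3 h was also called lower once the common shift was removed (log2 difference -1.12).

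Higher under nearly every stress was level2_lnc-479 (chromosome 4, 14997876 to 14998669, minus strand), which overlaps AT4G30790, the autophagy gene ATG11, on its strand. Reads from ATG11 itself may be among those counted. It counted 23 reads untreated, then 37 and 141 under cold, 177 and 208 under heat, 99 and 136 under salt, 72 and 107 under drought. All but cold at 3 h were called higher, by ratios of 3.02 (1.87 to 5.06) in drought at 3 h to 8.47 (5.42 to 13.8) in salt at 12 h, though drought at 3 h was under 2-fold after the common shift was removed (log2 difference 0.71). Likewise on the strand of a coding gene, AT1G30440, level1_lnc-23 (chromosome 1, 10758913 to 10759419, plus strand) counted 32 reads untreated, 68 and 104 under cold, 69 and 162 under heat and 32 to 46 under salt and drought. Heat at 12 h was 3.71-fold higher (2.53 to 5.61), and cold at 12 h 2.57-fold (1.72 to 3.95), the latter under 2-fold after the shift was removed (log2 difference 0.59).

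Of the 13 loci with PIF5 only, 3 lie in repeated sequence. At level2_lnc-185, level2_lnc-413 and level2_lnc-549, all small RNA precursors by class, the 1000 nt around the start are a tandem repeat with a unit of 178 nt. Shifted against itself by 2 units, the window was 92.7% identical at level2_lnc-185 (356 nt) and 91.2% at level2_lnc-549 (355 nt), and by 1 unit it was 82.7% identical at level2_lnc-413. Between the loci, which lie on chromosomes 2, 4 and 5, the windows aligned at 89.9% to 91.3% identity. The E-box CACATG occurs 5 times in each window, 178 nt apart at level2_lnc-413, 177 or 178 at level2_lnc-549, and 178 or 356 at level2_lnc-185. The units that start at the first CACATG inside each transcript are shown with that motif in capitals, on the plus strand. The unit at level2_lnc-185 runs past the end of the transcript.

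level2_lnc-185, chr2:3607172-3607349: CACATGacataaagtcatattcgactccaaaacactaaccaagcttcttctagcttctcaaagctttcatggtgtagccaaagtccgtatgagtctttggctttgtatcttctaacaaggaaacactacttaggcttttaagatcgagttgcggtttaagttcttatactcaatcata
level2_lnc-413, chr4:3953463-3953640: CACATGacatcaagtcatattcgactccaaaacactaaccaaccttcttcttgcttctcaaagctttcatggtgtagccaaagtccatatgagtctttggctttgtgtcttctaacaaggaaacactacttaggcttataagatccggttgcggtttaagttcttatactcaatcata
level2_lnc-549, chr5:11724246-11724423: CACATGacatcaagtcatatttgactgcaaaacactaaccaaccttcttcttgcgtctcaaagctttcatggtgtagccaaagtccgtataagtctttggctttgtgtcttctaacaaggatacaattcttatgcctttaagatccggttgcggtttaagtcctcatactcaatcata

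The centromeres of Arabidopsis are known to be built of a satellite repeat with a unit of this length, though the annotation used here does not name these loci as such. Position by position, the unit of level2_lnc-185 matches that of level2_lnc-413 in 170 of 178 bases, and that of level2_lnc-549 matches them in 161 and 165. The repeat is not particular to loci with the text: of 23 loci in the catalogue with this period (at least 60% self-identity), 3 are members and 20 name no factor. CACATG occurs at least 4 times in 19 of the 23 windows.

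**Figure D5:**
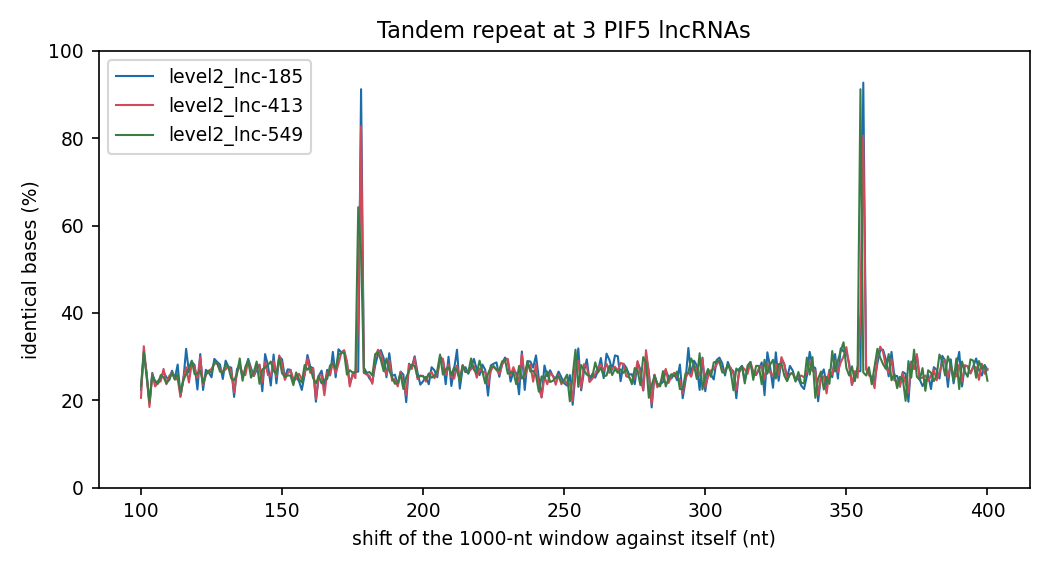
Share of identical bases (%) when the 1000-nt window around the start of level2_lnc-185, level2_lnc-413 and level2_lnc-549 is shifted against itself by 100 to 400 nt. Identity is low at most shifts and peaks at 1 and 2 repeat units, up to 92.7% at 356 nt.

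At each of these repeat loci the control was the lowest library or tied with the lowest. At level2_lnc-413 (chromosome 4, 3953433 to 3953687) the RPKM was 3.27 untreated, then 4.88 and 24.2 under cold, 5.93 and 16.4 under heat, 10.8 and 12.7 under salt, 6.76 and 30.6 under drought. Every stress library is above the control, though in cold at 3 h the interval of the ratio holds 1 (1.49, 0.862 to 2.66). Cold and drought were 4.95-fold (3.52 to 7.11) and 4.52-fold (3.24 to 6.44) higher at 12 h than at 3 h. At level2_lnc-185 (chromosome 2, 3607063 to 3607302) heat at 12 h gave 108 reads, the other stress libraries 5 to 27 and the control 1. Heat at 12 h was 11.6-fold above heat at 3 h (6.09 to 25.0). The third, level2_lnc-549 (chromosome 5, 11724198 to 11724600), had 9 reads in cold at 12 h, 5 in heat at 12 h and 0 to 4 elsewhere. The common shift of each library was not removed from these values, nor from those over all repeat loci below.

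Over the 23 repeat loci the reads per 1 M mapped reads were 5.72 untreated, then 8.72 and 32.7 under cold, 10.7 and 29.3 under heat, 17.9 and 24.2 under salt, 12.3 and 41.3 under drought. All stress libraries are above the control, also without level1_lnc-170, which names no factor and holds 41.6% to 58.4% of these reads (2.74 untreated, 4.64 to 17.2 under stress). Calls of higher among the 3 members and the 20 others numbered 1 and 2, then 2 and 6 under cold, 0 and 1, then 2 and 9 under heat, 2 and 5, then 2 and 6 under salt, 0 and 3, then 2 and 7 under drought. Neither labels nor headers say how reads that match several places were counted. Of the 100-nt stretches of level2_lnc-413, as long as a read, 41.7% occur elsewhere in the genome, in up to 15 copies, against 14.9% of those of level2_lnc-185 and 5.59% of those of level2_lnc-549. No other member has such a stretch.

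The members in the next sentences have few reads and were picked for well-known neighbours after the values were seen, so they stand for no theme. Opposite BBX21, a B-box factor that promotes light responses, level1_lnc-69 had 3 reads, all in drought at 12 h. Opposite LAF3, a gene of far-red light signalling, level2_lnc-372 had 4 reads in cold at 12 h, 1 in cold at 3 h and 0 elsewhere. AT5G15845, opposite the CONSTANS-like gene COL1, had 4 reads in cold at 3 h and in drought at 3 h and 12 h, and 0 elsewhere. AT4G14548, 58 bp from the auxin response repressor gene IAA14, had 1 read in all. AT5G03285, 110 bp from EIN2, which carries the ethylene signal, has a G-box 101 nt before its start and had 5 reads in cold at 12 h, 2 in heat at 12 h and 1 in salt at 3 h. At this depth no difference was detectable for any of them.

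Somewhat more reads fell elsewhere. AT3G06125, 589 bp from MUTE, a helix-loop-helix factor of the stomatal lineage, counted 10 reads untreated, 20 and 2 under cold, 21 and 25 under salt and 8 to 10 under heat and drought. AT3G24518, opposite HSFC1, a heat shock factor gene, and overlapping AT3G24517 on its own strand, had 18 reads in cold at 12 h, 0 in both heat libraries and 0 to 2 elsewhere. AT1G09421, opposite the glucose-6-phosphate dehydrogenase gene G6PD4, had 14 reads in heat at 12 h and 0 in the 8 other libraries. AT3G05905, opposite AT3G05900, had 27 in heat at 12 h and 0 to 4 elsewhere. AT5G06865, opposite PGIP1, an inhibitor of fungal pectinases, had 32 in cold at 12 h, 21 in drought at 12 h, 12 in salt at 3 h and 1 to 5 elsewhere. None of these 5 passed the 2-fold rule, which asks much of long loci with few reads.

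Of a list of 30 genes of the phytochrome and PIF pathway, from PIF4, PIF5 and PHYB to the targets ATHB2, IAA29 and PIL1, 1 had any lncRNA locus of the catalogue within 1000 bp and 0 had a member. The exception was HY5, a factor that opposes the PIFs, whose neighbour level1_lnc-257 has no binding text.

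The remaining members were low. Of the 107, 41 had at least 10 reads in some library, 22 of the 25 members that were called being among them. No read fell anywhere on 18. Of all 1362 loci, 386 had at least 10 reads in some library and 248 had no read anywhere. The share with at least 10 reads was thus higher in members than in all loci, so low reads are not particular to members.

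By class, 40 members (37.4%) were cis, against 25.3% of all loci, 29 were antisense (27.1% against 30.6%), 21 intergenic (19.6% against 20.1%) and 5 of the transposable element class (4.67% against 13.0%). The deposited chromatin scores belong to transcripts, and neither labels nor headers state their unit or the plants they come from. H3K9Ac, an acetylation mark of active promoters, had a median of 3.88 in members and 2.11 in all loci. The order was the same within annotated loci (6.63 and 5.30) and within predicted loci (2.41 and 1.52). H3K9Ac is named in the histone text of 43.9% of members and 27.3% of all loci. H3K4me3, another mark of active promoters, had medians of 1.47 and 1.00, while H3K27me3, a Polycomb mark, was at 1.28 and 1.29. CpG methylation had a median of 3.96 in members and 9.85 in all loci, also lower within annotated (5.94 and 11.8) and predicted loci (1.98 and 8.91).

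Among the 13 loci with PIF5 only, 7 are annotated, 6 predicted, and 3 of the 6 are the tandem repeat loci. Their median CpG score was 35.3, against 3.93 with PIF4 only and 2.62 with both factors, and 17.3 without the 3 repeat loci. By catalogue the median was 11.1 in the annotated ones, against 5.85 in other annotated members and 11.8 in all annotated loci, and 98.2 in the predicted ones, against 1.30 and 8.91. H3K27me1, a mark of heterochromatin, had a median of 6.55 with PIF5 only and 0 in both other sets. Among annotated loci it was lower with PIF5 only (3.72) than in other members (5.21), and among predicted loci higher (7.95 against 0). H3K27me3 did not set them apart, with medians of 1.34 with PIF5 only, 1.43 with PIF4 only and 1.12 with both. H3K9me2 is named in the text of 3 members, which are the 3 repeat loci. Median H3K9Ac was 4.54 with PIF5 only, 4.01 with PIF4 only and 3.30 with both.

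In length, the median member had 374 nt of exon (quartiles 279 and 836) and all loci 343 (265 and 598), with a median of 1 exon in both. The authors class the RNA structure as conserved at every predicted locus, member or not, and among annotated loci at 14.3% of members and 26.8% of all. In the authors' deposited table of responsive lncRNAs 26 members stand (24.3%, against 22.1% of all loci), all classed Poly(A)+, as are 245 of all 301 loci listed (81.4%). The authors' deposited table names high light for 15 of the 26 (57.7%, against 43.2% of listed loci), heat for 14 (53.8% against 36.9%), salt for 10 (38.5% against 29.2%), drought for 10 (38.5% against 32.9%) and cold for 6 (23.1% against 19.3%). The authors' deposited table lists level2_lnc-376 for drought and salt, AT3G61198 for cold, and AT1G15405 for high light and salt. High light is not among the 9 libraries analysed here. Since all 26 are classed Poly(A)+, the other calls too may come from other samples and another RNA fraction than these libraries.

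In the authors' deposited table of gene ontology terms with co-expressed lncRNAs, 13 of the 185 lncRNAs named are members. In the catalogue 107 of the 1362 loci are members, a similar share. The member most often named is level1_lnc-250, 458 bp from ATE1, in 253 of 338 terms, followed by level2_lnc-168 in 196 and level1_lnc-262 in 130. Term counts of lncRNAs that are not members were not compared. In the libraries analysed here level1_lnc-250 had at most 4 reads, in salt at 12 h.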

How the data were processed

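Whole reads were recovered from the RPKM values computed by the authors, since RPKM times exon length falls on multiples of 1 read: 2790 of 2790 non-zero predicted values were whole within 0.02 reads. Annotated rows are misordered: 4.11% were whole as deposited, and 1922 of 1922 once the 384 loci were ordered by the number after G. Per the submitters' processing notes, TAIR10, Bowtie 0.12.9, TopHat2 2.0.8 and Cufflinks were used; how reads were counted is stated in neither labels nor headers. Conservation and chromatin scores, randfold p-values and GO p-values are deposited values, and DEGseq calls follow the file headers of the authors' lists. There are 24 further columns of per-sample values that were not used. All 384 annotated loci overlapped their RefSeq TAIR10.1 gene on its strand, and printed starts are the deposited ones plus 1.

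Of the samples, 1 more, a tissue mix, was not analysed here. Members and lists were chosen with earlier results of these data known. Loci were called at 2-fold on log2(RPKM + 1), with a pseudocount of 1 RPKM. Ratios come from recovered reads with exact (Clopper-Pearson) binomial 95% intervals, which cover counting error only. For bounds given as at least a fold, a library at 0 counts as 3 reads and the counting error of the higher library is left out. A library's common shift is its median ratio to the control over 59 loci with at least 5 reads everywhere, of log2 0.04 (heat at 3 h) to 0.91 (drought at 12 h). It was not removed from any ratio of 12 h to 3 h. Named loci are the 10 with most reads, the 3 largest called differences per comparison with at least 10 reads, and those with a 12 h to 3 h ratio whose interval excludes 4-fold (listing as Poly(A)- and pathway neighbours, also in the rule, gave 0); others named in the text were chosen after their values were seen. Read recovery and calls were tested on simulated data. Tandem repeats were found as self-identity over shifts of 100 to 400 nt, and aligned with Biopython 1.88. The catalogue holds no coding genes, so the tissue was not checked against markers. Python 3.11.15, numpy 2.4.6, pandas 2.3.3 and scipy 1.17.1 were used.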

Additional observations from a re-analysis of the deposited data

Results flagged for a closer look

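At AT5G59732, opposite EXO70H7, both cold libraries were above the control and both heat libraries below it, with no interval that reaches a ratio of 1. The mean log2 difference was 1.26 in cold and -0.40 in heat, 1.66 apart. Whether the stresses differ was not tested, since each library has no replicate.

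At AT1G15405 both salt libraries were below the control, with a mean log2 difference of -0.74. Heat was above it by 0.12, 0.86 apart from salt, and drought by 0.33, 1.08 apart from salt. These differences were not tested either. After removal of the common shift, drought turned to -0.12 at 3 h and -0.58 at 12 h and heat to 0.04 and -0.24, while salt went to -1.10 and -1.27. The sign in drought, and in heat at 12 h, therefore rests on the authors' scaling.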

How the results depend on the processing

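No paired analysis was possible because each condition has 1 library. Counts of members higher and lower are given in the order cold 3 h, cold 12 h, heat 3 h, heat 12 h, salt 3 h, salt 12 h, drought 3 h, drought 12 h. With a pseudocount of 0.1 RPKM 24, 42, 15, 31, 23, 36, 21 and 36 were higher and 7, 3, 4, 5, 8, 4, 6 and 5 lower, shares of 14.0% to 39.3% and 2.80% to 7.48%, against 12.9% to 34.8% and 3.67% to 5.95% of all loci. Without a pseudocount, where the ratio's interval excludes 1, 11, 25, 9, 14, 8, 19, 13 and 18 were higher and 3, 2, 2, 4, 6, 4, 5 and 3 lower (7.48% to 23.4% and 1.87% to 5.61%, all loci 4.92% to 17.0% and 1.62% to 3.45%). At 4-fold 0, 3, 0, 3, 1, 6, 0 and 4 were higher and 0 lower throughout (up to 5.61%, all loci up to 2.20% higher and 0.661% lower). After removal of the common shift 4, 8, 3, 5, 5, 8, 3 and 7 were higher and 2, 1, 0, 1, 4, 3, 2 and 2 lower (2.80% to 7.48% and up to 3.74%, all loci 1.10% to 4.55% and 1.32% to 2.13%). Under these 4 settings, in this order, the member share higher was above that of all loci in 6, 7, 5 and 8 of the 8 comparisons. The member share lower was above in 4, 6, 0 and 5. Among predicted loci alone 1 was higher in heat at 3 h (all predicted loci 1.43%). In salt at 3 h 1 was lower, and 0 were in cold at 3 h and heat at 12 h (1.43%, 1.12% and 0.920%). Over the 8 comparisons 1.54% to 12.3% of predicted members were higher and up to 1.54% lower. All predicted loci had 1.43% to 10.4% and 0.920% to 1.43%. The share of predicted members was above that of all predicted loci in 8 comparisons for higher and in 4 for lower. A minimum of 10 reads over both libraries kept all counts within 1.5 times, but the shares are then of fewer loci. Higher were 15.8% to 36.7% of members and 9.46% to 44.2% of all loci kept, with members above in 4 comparisons. Lower were up to 13.6% of members and 7.37% to 14.4% of all loci kept, with members above in 0. With the wider window, chosen after seeing the data, 34.6% of members held a G-box, against 13.2% of all loci.

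Of 136 log2 differences of named loci, the 2-fold call changed for 37 with a pseudocount of 0.1 RPKM and for 11 without the common shift, and no called one changed sign. Median differences of members, by factor and without cis loci, ran from 0.07 to 0.45, those of all members from 0.11 to 0.38 and those of all loci from 0.09 to 0.32. The low reads limit most members: 82 had no read in the control, so calls of low loci depend on the pseudocount.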
